A study of Mus musculus with 12 samples.

Results

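The transcription factor genes Tcf7, Lef1, Satb1, Foxo1, Id2 and Id3, known from naive and resting T cells, were read by 13 of the 45101 probe sets of the Mouse430_2 array. The probe sets were chosen by identifier, 2 each for Tcf7, Lef1 and Satb1, 3 each for Foxo1 and Id2, and 1 for Id3. Their gene names came with that choice. The deposited table holds identifiers only, so no other probe set is named by gene below.

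The study asked which genes depend on the IL-2 receptor in regulatory T cells (Treg cells) and in activated effector T cells. The arrays formed 4 groups of 3: transgenic Treg cells, C57BL/6 Treg cells, transgenic effector cells and C57BL/6 effector cells. The transgenic mice, called C57BL/6-2Rbeta-WT/thymus in the labels, were crossed to mice lacking the IL-2 receptor beta chain, so that the receptor of their T cells was defective. No source used here names the promoter behind the transgene. Both strains have the C57BL/6 background. Treg cells were sorted without culture as CD4+ CD25 high spleen cells and pooled, from 4, 8 and 3 transgenic mice and from 8, 8 and 15 C57BL/6 mice. The transgenic Treg pools were 33, 13 and 7 to 16 weeks old, against 12, 12 and 10 weeks for the C57BL/6 pools. Effector cells came from 1 mouse per array, aged 9 to 15 weeks, and were sorted through the same CD4+ CD25 high gate after 48 hours of spleen culture. Anti-CD3 in that culture stimulates T cells through their antigen receptor. The gate uses no Foxp3, the factor that defines Treg cells.

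In naive T cells some of these factors help to hold cells in a resting state that can still respond to antigen. TCF-1 and LEF-1, made from Tcf7 and Lef1, are related HMG-box factors that keep naive and memory precursor programmes active. SATB1 organises chromatin loops in thymocytes and T cells. FOXO1 drives genes of quiescence and lymph node homing until signalling through AKT moves it out of the nucleus. ID2 and ID3 bind no DNA and block the E proteins, with ID2 linked to effector differentiation and ID3 to naive, memory precursor and Treg cells.

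Values are log2 GCRMA signals, the authors' background-corrected and normalized summary of each probe set, and a difference of 1 is a 2-fold change. Arrays of 1 group correlated at 0.923 to 0.992 over the tested probe sets, arrays of the other strain in the same population at 0.930 to 0.983, and arrays of the other population at 0.672 to 0.778. The control probe set for the 3′ end of the transferrin receptor transcript, a gene of dividing cells, read 4.39 to 7.66 for Treg cells and 8.02 to 10.43 for effector cells. Transgenic effector sample 3 had the lowest of the effector readings, and its purification label describes fresh spleen cells against its title. The effector differences below are therefore also given without it. The genes that define Treg cells, T cells or contaminating cells were not looked up here, because no probe set could be tied to them. In such sorted bulk samples, fewer cells of a type and less RNA per cell cannot be told apart.

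All 13 probe sets passed the filter of a log2 value of at least 5 on at least 3 of the 12 arrays. 12 of them passed on all 12 arrays, and Id2 1453596_AT reached 5 on 7 arrays. A probe set was called where limma's p, adjusted by the Benjamini-Hochberg method over 18271 tested probe sets, was under 0.05.

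In activated effector cells the transgenic samples had far more Id3 signal and a higher reading of 1 Tcf7 probe set than the C57BL/6 samples. Of the 13 probe sets, 2 were called, both higher in transgenic cells, where 2.99% of all tested probe sets were called and 1.92% were called higher. In 7 of the 13 the transgenic and C57BL/6 effector arrays did not overlap, 4 higher and 3 lower in transgenic cells, beside 22.8% of all tested probe sets (12.7% higher and 10.1% lower). The median effector difference was 0.55 over the 13 probe sets and -0.0053 over all tested ones. The 0.55 is the value of Foxo1 1416983_S_AT, which was not called and was 0.18 without transgenic effector sample 3. A median of the 13 without that sample was not computed, and their differences had both signs. In Treg cells none of the 13 was called.

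**Figure D1:**
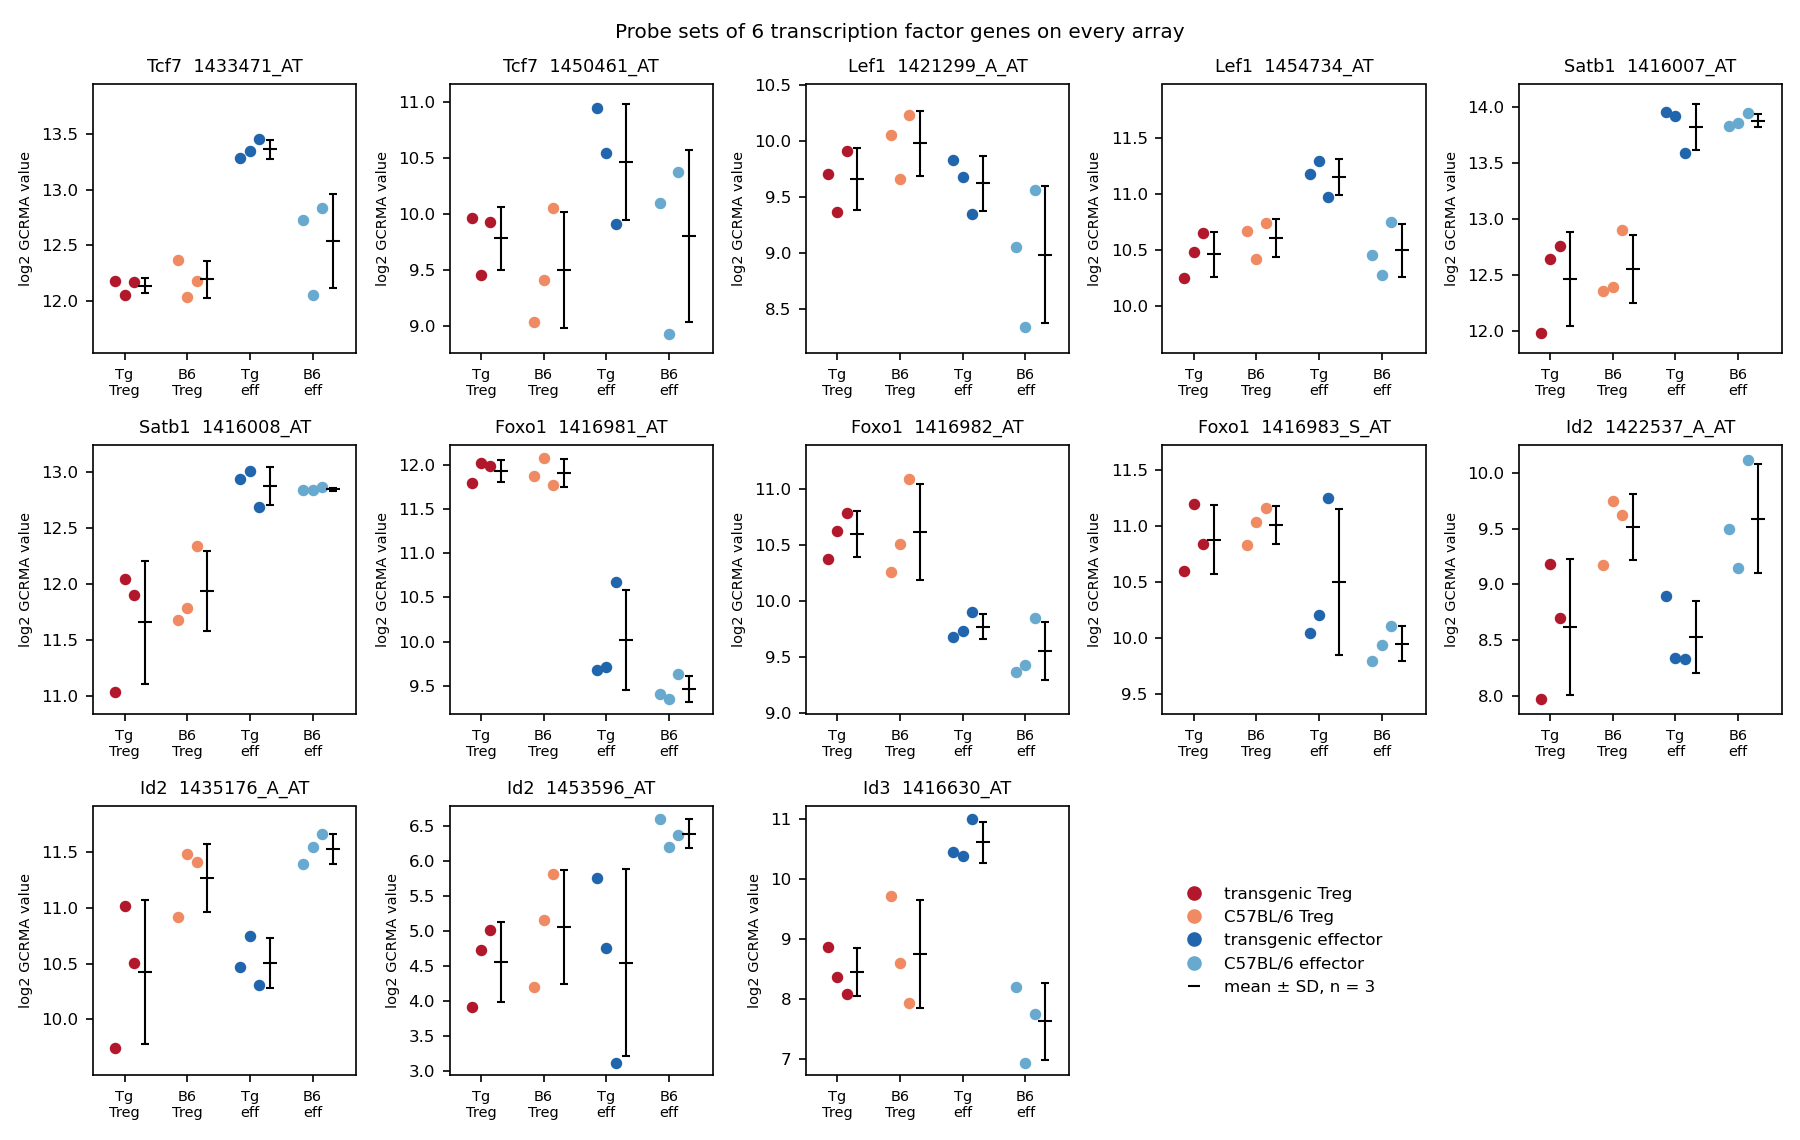
Log2 GCRMA value of each of the 13 probe sets (y axis, own range per panel) on each array, by group (x axis). Points are arrays, and the bars give the mean ± SD of 3 arrays. The Id3 points of transgenic effector cells sit at 10.38 to 11.00, above every other array of that panel.

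Tcf7 encodes TCF-1. Probe set 1433471_AT read 13.28, 13.34 and 13.45 in transgenic effector samples 1 to 3, against 12.73, 12.06 and 12.83 in C57BL/6 effector samples 1 to 3. In Treg cells it read 12.18, 12.06 and 12.18 in the transgenic pools and 12.37, 12.04 and 12.18 in the C57BL/6 pools. The transgenic effector arrays thus stood above all 9 others, while the other 3 groups overlapped. The effector strain difference was 0.82 (SE 0.18, 95% interval 0.42 to 1.22), a 1.76-fold higher signal in transgenic cells (limma adjusted p = 0.0359). It ranked 306th among the 350 probe sets called higher. The call was narrow: without transgenic effector sample 3 the difference was 0.77 with an adjusted p of 0.0927, and 9 of the 12 fits that left out 1 array lost it. So did the fit of the effector arrays alone (adjusted p = 0.155).

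The other Tcf7 probe set, 1450461_AT, did not separate the strains. It read 10.94, 10.54 and 9.91 in transgenic effector samples and 10.09, 8.93 and 10.38 in C57BL/6 effector samples, so the groups overlapped. The difference was 0.67 (SE 0.39, limma adjusted p = 0.479). It was 0.94 without transgenic effector sample 3, 0.23 without C57BL/6 sample 2 and 0.95 without C57BL/6 sample 3. With both probe sets averaged, the Tcf7 effector difference was 0.74 (SE 0.26), with an adjusted p of 0.183. In Treg cells the Tcf7 strain differences were -0.06 (95% interval -0.46 to 0.34) and 0.28 (-0.58 to 1.15), neither past the test.

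Lef1 encodes the partner factor LEF-1. Probe set 1454734_AT read 11.18, 11.29 and 10.97 in transgenic effector samples, against 10.45, 10.28 and 10.75 in C57BL/6 effector samples. Each transgenic effector array lay above each C57BL/6 one, and the difference was 0.65 (SE 0.17, 95% interval 0.29 to 1.02, 1.57-fold), just short of the threshold (limma adjusted p = 0.0640). Without transgenic effector sample 3 it was 0.74 with an adjusted p of 0.0617, and without C57BL/6 effector sample 3 it was 0.78 and passed, at 0.0382. Probe set 1421299_A_AT read 9.84, 9.68 and 9.35 in transgenic effector samples and 9.06, 8.34 and 9.56 in C57BL/6 effector samples. These overlapped at the level of transgenic sample 3, with a difference of 0.64 (SE 0.29, adjusted p = 0.318). It was 0.77 without transgenic effector sample 3, 0.31 without C57BL/6 sample 2 and 0.92 without C57BL/6 sample 3.

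In Treg cells the Lef1 values of both strains lay together. Probe set 1454734_AT read 10.24, 10.48 and 10.65 in transgenic Treg pools and 10.66, 10.42 and 10.74 in C57BL/6 pools, a difference of -0.15 (95% interval -0.51 to 0.22, limma adjusted p = 0.906). Probe set 1421299_A_AT averaged 9.66 ± 0.28 in transgenic Treg pools and 9.98 ± 0.29 in C57BL/6 pools (SD, n = 3 each).

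Satb1, the chromatin organiser, did not pass the strain test in either population. Probe set 1416007_AT read 13.96, 13.92 and 13.59 in transgenic effector samples and 13.83, 13.86 and 13.94 in C57BL/6 effector samples, a difference of -0.06 (95% interval -0.52 to 0.41, limma adjusted p = 0.980). Probe set 1416008_AT differed by 0.03 (95% interval -0.52 to 0.58). The 95% intervals of both probe sets stayed within 0.58 of no change, and without transgenic effector sample 3 the differences were 0.06 and 0.12. In Treg cells the Satb1 differences were -0.09 and -0.28, with adjusted p of 0.966 and 0.865.

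Foxo1 is the forkhead factor of quiescent T cells. Probe set 1416981_AT read 9.68, 9.71 and 10.67 in transgenic effector samples, against 9.41, 9.35 and 9.63 in C57BL/6 effector samples. The groups did not overlap, and transgenic sample 3 stood far above the other 5 arrays. The difference was 0.56 (SE 0.23, limma adjusted p = 0.280) and 0.23 without that sample. Probe set 1416983_S_AT, whose suffix marks probes shared by several transcripts, had the same high sample, at 10.04, 10.20 and 11.25 in transgenic effector samples and 9.79, 9.94 and 10.11 in C57BL/6 ones. Its difference was 0.55 (SE 0.28), and 0.18 without that sample. Probe set 1416982_AT differed by 0.22 (SE 0.22), and by 0.16 without it. In Treg cells the 3 Foxo1 strain differences lay between -0.13 and 0.02.

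Id3 had the widest effector strain difference of the 13. Its probe set 1416630_AT read 10.44, 10.38 and 11.00 in transgenic effector samples, against 8.21, 6.94 and 7.75 in C57BL/6 effector samples. Treg cells lay mostly between these, with 8.87, 8.37 and 8.09 in transgenic pools and 9.71, 8.60 and 7.93 in C57BL/6 pools. The order of the group means was transgenic effector (10.61 ± 0.34), C57BL/6 Treg (8.75 ± 0.90), transgenic Treg (8.44 ± 0.40) and C57BL/6 effector cells (7.63 ± 0.64, SD, n = 3 each). Transgenic effector cells stood clear of the next group, whereas the C57BL/6 Treg arrays overlapped both of the lower groups.

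The Id3 effector difference was 2.97 (SE 0.44, 95% interval 2.01 to 3.94), a 7.86-fold higher signal in transgenic cells (limma adjusted p = 0.00379). It ranked 18th among the 350 probe sets called higher and 23rd among all 18271. Without transgenic effector sample 3 it was 2.78 (adjusted p = 0.0147), and it passed under all 21 alternatives, at 2.56 to 3.26. Not all of these could move the value. The gene mean is the same single probe set, and leaving out a Treg array changes the error but not the effector difference. In Treg cells the Id3 difference was -0.30 (95% interval -1.26 to 0.66, adjusted p = 0.935). The 18 spike-in control probe sets averaged 10.52, 10.50 and 10.79 on the transgenic and 12.65, 11.63 and 10.50 on the C57BL/6 Treg arrays. The C57BL/6 averages fell in the order of the Id3 values, whereas the highest transgenic average, 10.79, came with the lowest transgenic Id3 value, 8.09. The same arrays carry the Treg strain differences of all 13 probe sets, and the part of the spike-ins in these was not tested.

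The strain difference of Id3 itself differed between the populations. The Treg difference minus the effector difference was -3.28 (SE 0.62, 95% interval -4.64 to -1.92, limma adjusted p = 0.0195). It was the only one of the 13 called in this comparison, where 2.26% of tested probe sets were called and 1.52% were called lower. It missed the threshold without C57BL/6 Treg sample 2 (-3.35, adjusted p = 0.0535), transgenic Treg sample 2 (-3.24, 0.0512) or transgenic Treg sample 3 (-3.10, 0.0567). Without transgenic effector sample 3 it was -3.08 and passed (0.0427). For Tcf7 1433471_AT this difference was -0.87 (SE 0.26, adjusted p = 0.130), and for Lef1 1454734_AT it was -0.80 (SE 0.23, adjusted p = 0.128). Neither gene is thus shown to differ by strain more in effector than in Treg cells.

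**Figure D2:**
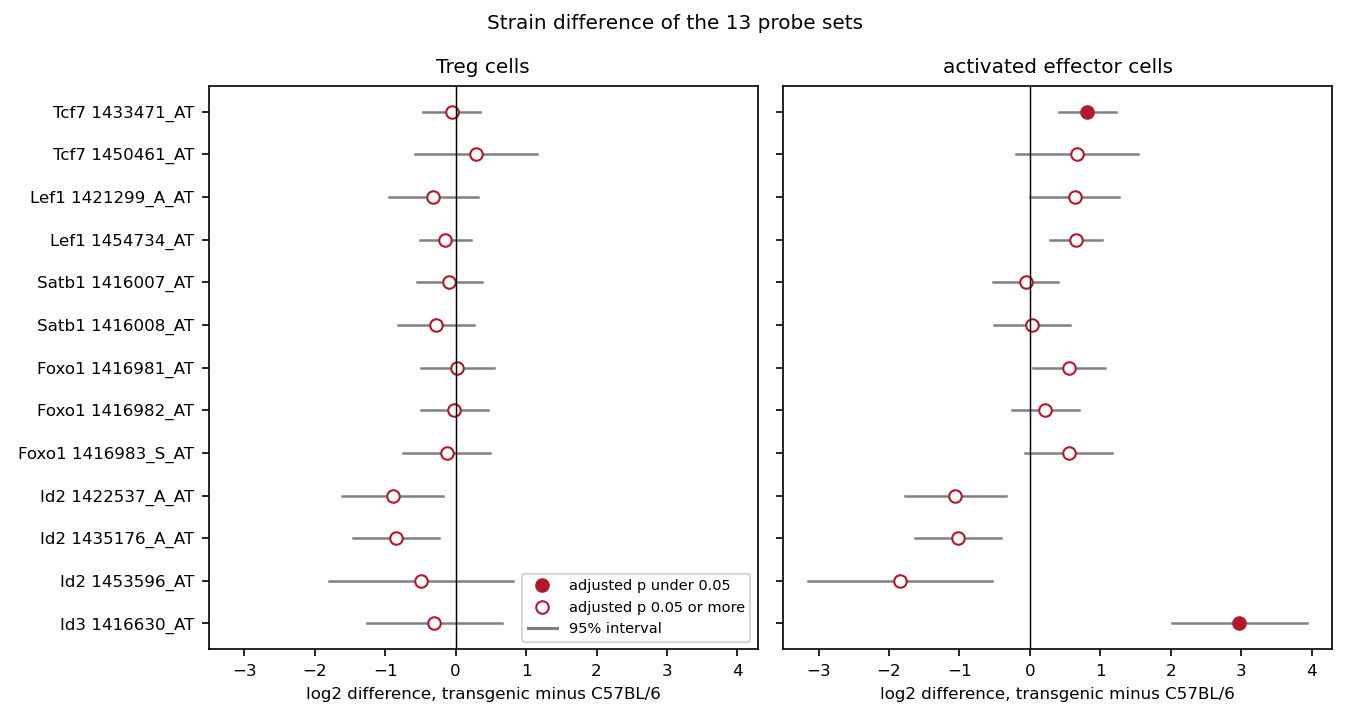
Log2 difference, transgenic minus C57BL/6 (x axis), of each probe set (y axis) in Treg cells (left) and effector cells (right), with its 95% interval. Filled points have an adjusted p under 0.05: Tcf7 1433471_AT (0.82) and Id3 (2.97) in effector cells, and none in Treg cells.

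Id2, the relative of Id3, gave values of the opposite sign on each of its 3 probe sets in effector cells, none of which passed the test. Probe set 1435176_A_AT read 10.47, 10.75 and 10.31 in transgenic effector samples, against 11.39, 11.54 and 11.66 in C57BL/6 effector samples. Probe set 1422537_A_AT read 8.90, 8.35 and 8.34 in transgenic samples, against 9.50, 9.15 and 10.11 in C57BL/6 samples. Probe set 1453596_AT, which reached the filter level on 7 of 12 arrays, read 5.76, 4.76 and 3.11 in transgenic samples, against 6.60, 6.20 and 6.37 in C57BL/6 samples. On all 3 probe sets each transgenic array lay below each C57BL/6 array.

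The Id2 effector differences were -1.02 (SE 0.28, 95% interval -1.63 to -0.41, limma adjusted p = 0.0856), -1.06 (SE 0.33, adjusted p = 0.132) and -1.85 (SE 0.59, adjusted p = 0.147), in the same order. On the first pair C57BL/6 cells had 2.03 and 2.08 times the signal of transgenic cells. No fold is given for 1453596_AT, since transgenic samples 2 and 3 lay below the filter level of 5. Averaged over the 3 probe sets, with the low values of 1453596_AT included, the difference was -1.31 (SE 0.35, limma adjusted p = 0.0776). Without transgenic effector sample 3 the values were -0.92, -0.96 and -1.13. The first of them, 1435176_A_AT, passed when effector arrays were fitted alone (adjusted p = 0.0426), the fit in which Tcf7 1433471_AT did not.

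In Treg cells Id2 also had its lowest value in a transgenic pool. Probe set 1435176_A_AT read 9.74, 11.02 and 10.51 in transgenic Treg pools, against 10.92, 11.47 and 11.41 in C57BL/6 pools. Probe set 1422537_A_AT read 7.97, 9.18 and 8.70 in transgenic pools, against 9.18, 9.74 and 9.62 in C57BL/6 pools. The strains overlapped on both, and transgenic pool 1, the 33 week old one, was lowest on all 3 Id2 probe sets. Of the 13 probe sets, 0 kept the Treg strains apart, beside 14.8% of all tested, and 0 were called, beside 1.19%; limma called 218 probe sets in all, and 1714 had an unadjusted p under 0.05.

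The Id2 Treg differences were -0.84 (SE 0.28, limma adjusted p = 0.271) for 1435176_A_AT, -0.90 (SE 0.33, 0.356) for 1422537_A_AT and -0.50 (SE 0.59, 0.914) for 1453596_AT. Both first values had an unadjusted p under 0.05, at 0.0112 and 0.0195. With replicate numbers as a block in both populations, 1435176_A_AT did not pass (limma adjusted p = 0.107). With that block in the Treg arrays only, it passed with a limma adjusted p of 0.0398. The block in Treg arrays only was added after seeing the data. Same-numbered pools varied together for numbers 1 and 3 (r of 0.58 and 0.51) but hardly for 2 (0.10). Without transgenic pool 1 its difference was -0.50 (adjusted p = 0.767), and the part of age in it was not tested. The Id2 strain difference was not shown to differ between the populations (0.18, SE 0.39, adjusted p = 0.901 for 1435176_A_AT).

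**Figure D3:**
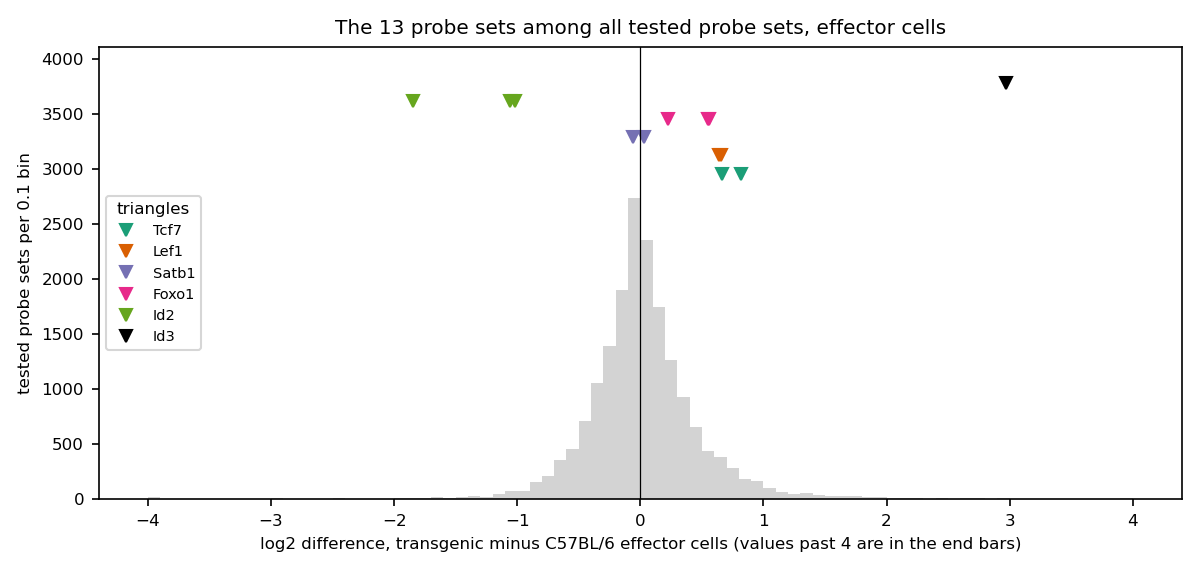
Number of tested probe sets (y axis) by effector strain difference, transgenic minus C57BL/6, in bins of 0.1 log2 (x axis, grey bars), with the 13 probe sets as triangles coloured by gene at arbitrary heights. Id3 lies at 2.97 on the far right, the 3 Id2 probe sets at -1.85 to -1.02, and the 2 Satb1 probe sets at -0.06 and 0.03 near the centre.

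Id3, with 1 probe set, and Id2, with 3 that were not called, kept the strains apart in effector cells on every probe set. Their signs were opposite. By this rule, set after the values were seen, the 250 bases before their annotated starts are shown (RefSeq, GRCm38.p6). The Id3 window is chr4:136143572-136143821 on the plus strand and the Id2 window is chr12:25096093-25096342 on the minus strand, both written 5′ to 3′ on the gene's strand. Capitals mark a match to CANNTG, the E box bound by the E proteins that ID proteins block.
Id3: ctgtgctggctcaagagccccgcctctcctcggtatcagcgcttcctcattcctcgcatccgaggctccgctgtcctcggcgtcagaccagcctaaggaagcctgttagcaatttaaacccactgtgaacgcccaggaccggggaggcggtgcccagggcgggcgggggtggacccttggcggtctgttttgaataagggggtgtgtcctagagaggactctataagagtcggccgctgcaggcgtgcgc
Id2: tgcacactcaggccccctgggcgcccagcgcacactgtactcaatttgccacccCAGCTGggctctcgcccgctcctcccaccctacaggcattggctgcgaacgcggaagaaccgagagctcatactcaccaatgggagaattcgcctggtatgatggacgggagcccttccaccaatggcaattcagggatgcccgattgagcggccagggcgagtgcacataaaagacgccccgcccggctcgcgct

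Both strands were searched for CANNTG, for GTAAACA, a core bound by forkhead factors, and for CTTTGA, a core bound by TCF-1 and LEF-1. The Id2 window held 1 match, an E box at position -196 from the start, and the Id3 window held none of the 3. Among 32851 such mouse windows, 66.2% held CANNTG, 3.17% GTAAACA and 13.8% CTTTGA. A match is only these letters in the window, and none of the arrays measured binding.

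The comparison of fresh Treg cells with cultured effector cells carries large differences in both strains, and culture, pooling and the provider's code series moved with it and cannot be told apart from cell type. It shares its arrays with the strain comparisons. In transgenic mice limma called 7 of the 13, 2 higher and 5 lower in Treg cells, and 70.0% of all tested probe sets (30.0% higher, 40.0% lower). In C57BL/6 mice it called 7 of the 13, 5 higher and 2 lower in Treg cells, and 73.8% of all (31.7% higher, 42.0% lower). The share of the 13 is below the background in both. As deposited, the median difference over all tested probe sets was -0.21 in transgenic and -0.26 in C57BL/6 mice, and quantile normalization moved these medians to 0.072 and 0.017.

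Foxo1 was higher in Treg cells. Probe set 1416981_AT averaged 11.93 ± 0.12 in transgenic Treg cells and 10.02 ± 0.56 in transgenic effector cells, a difference of 1.91 (3.76-fold, limma adjusted p = 2.01e-05). In C57BL/6 mice it averaged 11.91 ± 0.16 in Treg cells and 9.47 ± 0.15 in effector cells, a difference of 2.44 (5.43-fold, adjusted p = 2.46e-06). No effector array of either strain reached a Treg array. Relative to the median probe set the differences were 2.12 and 2.70, and after quantile normalization 2.52 and 3.04. The other probe sets gave 0.82 and 0.38 in transgenic mice, of which the first passed, and 1.07 and 1.06 in C57BL/6 mice, which both passed. Without transgenic effector sample 3 the 0.38 of 1416983_S_AT became 0.76 and passed (adjusted p = 0.00458).

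Satb1 was lower in Treg cells. Probe set 1416007_AT read 11.98, 12.64 and 12.76 in transgenic Treg pools, all below the 13.59 to 13.96 of transgenic effector samples, and the difference was -1.36 (limma adjusted p = 0.000131). In C57BL/6 mice it read 12.36, 12.39 and 12.90 in Treg pools, below the 13.83 to 13.94 of effector samples, a difference of -1.33 (adjusted p = 0.000142). Relative to the median probe set these were -1.15 and -1.07, and after quantile normalization -0.85 and -0.76, still past the test. Probe set 1416008_AT gave -1.22 in transgenic mice and -0.91 in C57BL/6 mice, both past the test. After quantile normalization these were -0.57 (adjusted p = 0.0498) and -0.20 (adjusted p = 0.471), so the second no longer passed.

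Id3 pointed in opposite directions in the strains. In transgenic mice Treg cells had less Id3 than effector cells, at -2.16 (SE 0.44, limma adjusted p = 0.000955), with effector cells at 4.47 times the signal. In C57BL/6 mice Treg cells had more, at 1.12 (SE 0.44, 2.17-fold, adjusted p = 0.0372), although Treg pool 3 lay at 7.93, under the 8.21 of effector sample 1. That second call was lost without C57BL/6 Treg pool 1 (0.64, adjusted p = 0.158), Treg pool 2 (1.19, 0.0611), effector sample 2 (0.77, 0.150) or effector sample 3 (1.17, 0.0622).

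For Tcf7 and Lef1 the probe sets and scalings gave different calls. Tcf7 1433471_AT was lower in Treg than in effector cells of transgenic mice, at -1.22 (limma adjusted p = 0.0001001, -0.62 after quantile normalization). It read -0.34 in C57BL/6 mice (adjusted p = 0.108), where quantile normalization gave 0.38 and the fit without effector sample 2 gave -0.59, past the test (0.00245). Lef1 1454734_AT was lower in transgenic Treg cells, at -0.69 (adjusted p = 0.00303), but at -0.04 after quantile normalization, and it differed by 0.11 in C57BL/6 mice (0.78 after quantile normalization, past the test). Lef1 1421299_A_AT was higher in Treg cells of C57BL/6 mice, at 0.99 (adjusted p = 0.00833), and differed by 0.04 in transgenic mice. As given above, the strain difference of neither gene was shown to differ between the populations. Of the Id2 probe sets none passed in either strain, and the widest difference was -1.34 for 1453596_AT in C57BL/6 mice (adjusted p = 0.0606), which passed after quantile normalization (-1.73, adjusted p = 0.0240). Without transgenic effector sample 3 the 7 calls in transgenic mice all remained, at -1.17 for Tcf7 1433471_AT, -0.78 for Lef1 1454734_AT, -1.48 and -1.31 for Satb1, 2.24 and 0.89 for Foxo1, and -1.96 for Id3. Of the uncalled transgenic values Id2 1453596_AT moved most, to -0.70 from 0.01.

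**Figure D4:**
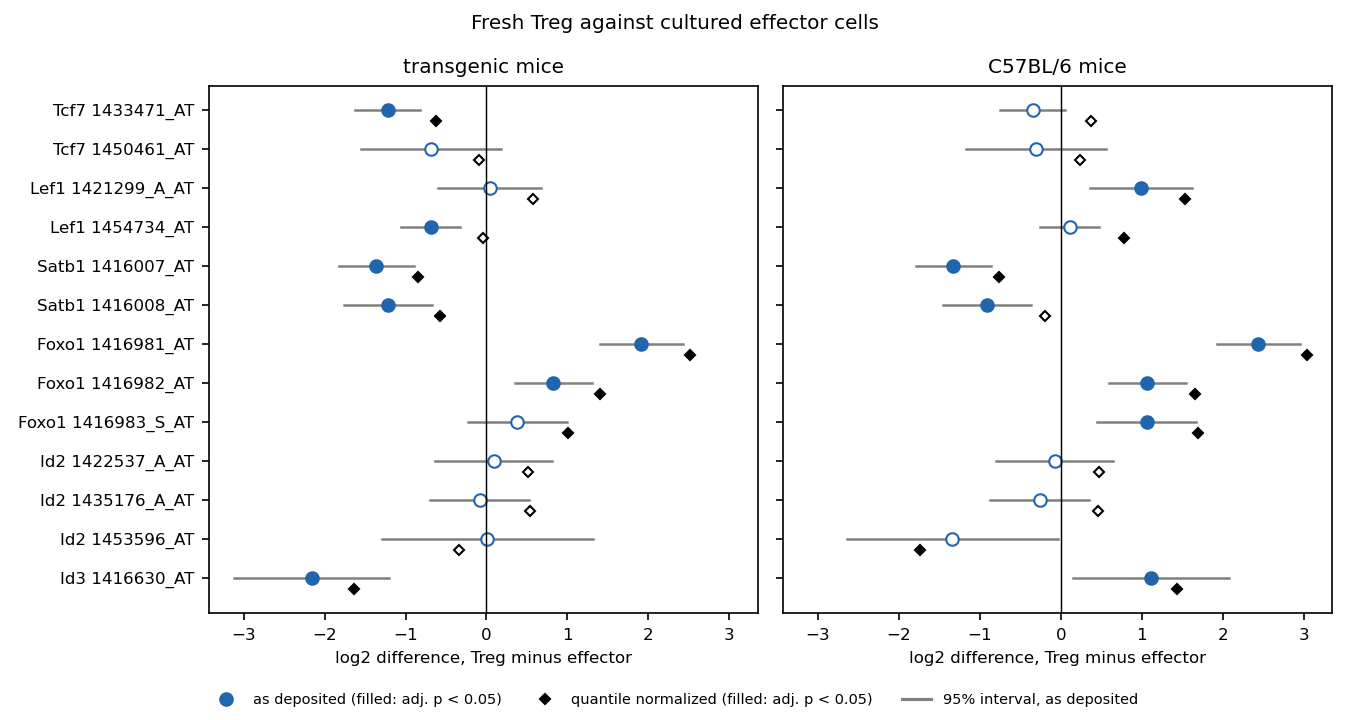
Log2 difference, Treg minus effector (x axis), of each probe set (y axis) in transgenic mice (left) and C57BL/6 mice (right). Circles with 95% intervals use the values as deposited and diamonds use quantile normalized values, filled where the adjusted p is under 0.05. Id3 lies at -2.16 in transgenic mice and 1.12 in C57BL/6 mice.

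Probe sets of 1 gene did not always vary together over the 12 arrays. The Satb1 pair correlated at 0.975 (Pearson's r), the Foxo1 probe sets at 0.906 and 0.854 with 1416981_AT, and the Id2 probe sets at 0.904 and 0.729 with 1435176_A_AT. The Tcf7 pair correlated at 0.688 and the Lef1 pair at 0.395. These correlations span 4 groups and describe the arrays only.

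Among all other tested probe sets the closest in pattern over the 12 arrays were 1436388_A_AT (r = 0.965) and 1417756_A_AT (0.959) for Tcf7, and 1427889_AT (0.938) and 1428344_AT (0.937) for Lef1. For Satb1 they were 1430989_A_AT (0.989) and 1439413_X_AT (0.987), and for Foxo1 1439079_A_AT and 1458060_AT (both 0.994). For Id2 they were 1460575_AT (0.887) and 1423976_AT (0.850), and for Id3 1416918_AT (0.915) and 1460344_AT (0.913). The second Id3 neighbour averaged 9.43 in transgenic Treg, 9.76 in C57BL/6 Treg, 10.18 in transgenic effector and 9.12 in C57BL/6 effector cells. Both Id3 neighbours had the order of groups that Id3 itself had. They were picked for likeness to Id3 on these same arrays, so the shared order is no separate result. Id2 1422537_A_AT, another probe set of the gene, was closer to 1435176_A_AT than any other tested probe set was.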

How the data were processed

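RNA of 12 sorted spleen T cell samples went through 1 in vitro transcription round and was hybridised to Affymetrix Mouse430_2 arrays, per the labels' protocols. The deposited values are log2 signals per probe set, made with GCRMA per the submitters' processing notes, with no version given in the sources used here. No source says if the authors put both populations through GCRMA together, and the lowest log2 values were 0.942 to 0.957 on Treg and 0.296 to 0.325 on effector arrays.

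The 64 control probe sets were left out, and 18271 of the other 45037 were tested. limma 3.58.1 in R 4.3.3 fitted the mean of each of the 4 groups over the 12 arrays, with variances that follow the mean (eBayes with trend), and p-values were adjusted over all tested probe sets. Contrasts were transgenic minus C57BL/6 within each population, the difference of these, and Treg minus effector within each strain. Replicates are biologically distinct per the labels, and the number of arrays limits the precision. All 13 probe sets are named. The code was tested on simulated data.

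The members, lists and tests were chosen with earlier results of these data known. Lists of pathway genes and cell markers were drawn up but not used, and the disrupted receptor gene was not looked up, since no table here pairs probe sets with genes. Promoters were to be shown for genes called in a strain comparison. After the values were seen, this became genes whose every probe set kept the effector strains apart, which left out Tcf7 and added Id2. By their deviations from the group means, same-numbered Treg pools varied together for numbers 1 and 3 (r of 0.58 and 0.51) but hardly for 2 (0.10). Replicate numbers did not pair the effector arrays (0.21, -0.34 and -0.34). The pairing comes from the data, not the labels. Replicate numbers follow the titles; the descriptions of transgenic effector sample 2 and C57BL/6 effector sample 3 carry another number.

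Alternatives were other normalizations and filters, no variance trend, array weights, each population alone, replicate and run blocks, gene means, and leaving out each array.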

Additional observations from a re-analysis of the deposited data

Results flagged for a closer look

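The strain difference of Id3 1416630_AT was singled out because its effect differed between Treg and effector cells in a test of that difference. The Treg difference (-0.30) minus the effector difference (2.97) was -3.28 (SE 0.62, limma adjusted p = 0.0195). All 3 transgenic effector arrays lay above all 3 C57BL/6 effector arrays, while the Treg arrays overlapped. No group held enough arrays to be searched for a single outlying array.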

How the results depend on the processing

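Of 1347 single values recomputed under alternatives, 1294 stayed on their side of the threshold (64 of these were uncalled values that changed sign), 24 lost a call, 29 gained one, and 0 called values changed sign. These values are not independent checks. A gene's mean is counted once for each of its probe sets, and leaving out an array outside a comparison does not change its difference. In the Treg strain comparison 0 of 13 probe sets were called, and 1 was, Id2 1435176_A_AT, with array weights or with a replicate block in the Treg arrays only, an alternative added after seeing the data. Array weights raised calls throughout, to 1232 of 18271 tested probe sets in the Treg strain comparison (218 as reported), 3033 in the effector one (547) and 2529 in the difference of both (413), so their member counts are read against these. In the effector strain comparison 2 were called as reported, and 1 without a filter, without a variance trend or with gene means. With array weights 7 were called (as above). The weights were lowest for transgenic effector sample 3 (0.229) and C57BL/6 Treg sample 3 (0.236). They were highest for C57BL/6 Treg sample 2 (5.02) and C57BL/6 effector sample 1 (3.93). Fitting the effector arrays alone kept the count at 2 but exchanged Tcf7 1433471_AT for Id2 1435176_A_AT. Leaving out 1 array gave 1 to 3. The 7 with array weights were both Lef1 and all 3 Id2 probe sets beside Tcf7 1433471_AT and Id3. The replicate block in both populations gave 3, adding Id2 1435176_A_AT, although the effector numbers do not pair. In the difference of strain differences 1 was called, 0 without a filter (Id3 adjusted p = 0.05002), 2 with array weights, adding Lef1 1454734_AT, and 0 to 1 when 1 array was left out. The replicate block kept that Id3 call (adjusted p = 0.0102, and 0.00701 in Treg arrays only) and changed no other call of the 13. With runs of the provider's consecutive sample codes as a block, 0 of 13 passed in Treg cells, and the Id3 value of this comparison was -3.51 (adjusted p = 0.0258). The cause of these changes was not tested, including the part of the larger number of probe sets tested without a filter. The 3 arrays a group limit the precision, and no detection call or background signal of a probe set was used.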
